A study of Mus musculus with 21 samples.

Results

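The 7 genes described here encode secreted proteins of the mouse oocyte and KIT, a receptor on its surface. They are a set listed by function, drawn up with earlier results of these data known: *Gdf9*, *Bmp15* and *Bmp6*, ligands of the TGF-beta family; *Kit*, a receptor tyrosine kinase; and *Oosp1*, *Oosp2* and *Oosp3*, the genes of the oocyte-secreted protein family. They are 7 of the 54232 genes counted, each was matched to its Ensembl identifier by symbol, and all 7 passed the filter on low counts (at least 3 libraries with any count). The lowest count of any of them in any library was 332, for *Bmp6*.

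Poly(A) RNA was sequenced from fully grown germinal vesicle oocytes of gonadotropin-primed females of 3 to 4 months on a C57BL/6 background, with 3 oocytes pooled in each of 21 libraries. The study asked how much of the kinesin KIF11 an oocyte needs. Every library carries at least 1 floxed *Kif11* allele (fl). The groups were *Kif11* wt/fl without Cre (4 libraries, the control), wt/fl with Spo11-Cre (5), fl/del without Cre (4), where del is the constitutive deletion allele, fl/del with Spo11-Cre (4), fl/fl with Gdf9-Cre (2) and fl/fl with Zp3-Cre (2); the last 2 groups are called Gdf9-Cre and Zp3-Cre here. Spo11-Cre acts from early meiotic prophase, Gdf9-Cre and Zp3-Cre are transgenes driven by the promoters of genes that the growing oocyte expresses, and *Gdf9* is therefore both a gene described here and the source of a Cre promoter. Each mouse gave 1 or 2 libraries, so p-values measure the spread between libraries, part of which may be technical. The study's methods describe the 17 libraries of the Spo11-Cre background, and the 4 fl/fl libraries stand outside that number, so set and genotype cannot be told apart in comparisons of fl/fl with wt/fl.

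GDF9 and BMP15 are secreted by the oocyte and act on granulosa and cumulus cells through type I and type II serine/threonine kinase receptors and SMAD proteins. GDF9 is needed for follicles to grow past the primary stage and for cumulus expansion, BMP15 is encoded on the X chromosome and acts together with GDF9, and BMP6 is a further ligand made by growing oocytes. KIT sits on the oocyte surface and binds KIT ligand from the granulosa cells, which starts PI3K signalling in the oocyte. The OOSP proteins are secreted proteins related to PLAC1 and are made mainly by oocytes. NOBOX, an oocyte homeobox factor, is known to act on *Gdf9*.

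*Oosp2*, *Oosp1* and *Oosp3* lie next to each other on mouse chromosome 19 (GRCm38, GENCODE annotation), over 64.6 kb. *Oosp2* spans chr19:11647279-11660559 and *Oosp1* chr19:11667460-11691150, both on the minus strand, and *Oosp3* chr19:11697055-11711874 on the plus strand. Their exons add up to 678, 972 and 823 bases. *Kif11* is on the same chromosome, 25.7 Mb away. *Gdf9* lies at chr11:53431023-53437904 on the plus strand with 2031 exonic bases, *Bmp15* at chrX:6314107-6320721 on the minus strand with 3060, *Bmp6* at chr13:38345107-38500302 on the plus strand with 3900, and *Kit* at chr5:75574916-75656722 on the plus strand with 8911. The OOSP transcripts share at most 12 identical bases in a row and the 3 ligands at most 13.

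Promoter sequences were taken from RefSeq (GRCm38.p6), which matched 5 of the 7 genes. Those of *Bmp15*, *Oosp1* and *Oosp2* are shown because these genes are the most abundant of the 5 and because NOBOX and bHLH factors are known to act on oocyte genes through short motifs. Capitals mark TAATTA or TAATTG, the element to which NOBOX binds, and CANNTG, the E-box, found on either strand. All are given in the direction of transcription. The *Oosp1* window stops where the GENCODE exon begins.
*Bmp15*, chrX:6320725-6320974, minus strand: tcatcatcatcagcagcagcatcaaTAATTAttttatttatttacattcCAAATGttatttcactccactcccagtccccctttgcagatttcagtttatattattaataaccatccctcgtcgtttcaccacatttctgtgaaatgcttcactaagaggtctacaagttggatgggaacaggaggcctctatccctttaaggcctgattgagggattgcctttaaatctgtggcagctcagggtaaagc
*Oosp1*, chr19:11691151-11691301, minus strand: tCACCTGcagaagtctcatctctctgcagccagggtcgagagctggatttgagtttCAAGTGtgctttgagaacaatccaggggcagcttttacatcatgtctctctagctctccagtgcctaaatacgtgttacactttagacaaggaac
*Oosp2*, chr19:11660560-11660809, minus strand: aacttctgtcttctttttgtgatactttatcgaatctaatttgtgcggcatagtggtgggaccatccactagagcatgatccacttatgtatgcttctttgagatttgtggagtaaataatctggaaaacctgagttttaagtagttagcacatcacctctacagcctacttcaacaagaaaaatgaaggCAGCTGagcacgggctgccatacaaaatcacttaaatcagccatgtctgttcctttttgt
The *Bmp15* promoter held TAATTA at position -225 from the RefSeq start and an E-box at -201. The *Oosp2* promoter held an E-box at -60, and the 250 bases before the *Oosp1* start held 5 E-boxes, 2 of them in the part printed, at -249 and -194. The *Bmp6* promoter held E-boxes at -127 and -51, the first of which reads CACGTG, and the *Kit* promoter held none of these motifs. Among 27025 promoters of the same 250 bases, CANNTG was present in 66.0%, TAATTG in 7.34%, TAATTA in 4.90% and CACGTG in 6.05%. A match says only that the letters are there.

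Library totals were 7205010 to 18454549 counts, and levels are given as CPM, the count divided by the library total and scaled to 1000000. *Kif11*, the targeted gene, went with the labels. Mean levels were 34.5 CPM for wt/fl, 24.6 when wt/fl carried Spo11-Cre, 11.9 for fl/del, 1.78 when fl/del carried Spo11-Cre and 6.11 for Zp3-Cre. All differences from wt/fl passed the test except that of wt/fl Spo11-Cre (edgeR adjusted p = 0.237), with a log2 fold change of -2.85 in Gdf9-Cre (SE 0.33, adjusted p = 2.06e-08). All 12 oocyte markers were detected in every group, with a summed level of 28634 to 36425 CPM per library. The 20 follicle cell markers summed to 403 to 568 CPM, of which *Serpine2* gave 318 to 440.2 CPM, *Cyp19a1* 46.5 to 80.5, *Nr5a2* 21.1 to 44.8 and *Kitl* 1.74 to 7.42, all detected in every library. *Foxl2*, a granulosa cell factor, and *Ptx3*, made by the cumulus, were at 0 in every library, and the other 14 were at 0 in at least 1 library and at most at 5.39 CPM. The pair of Zp3-Cre libraries differed from each other more than any other pair of a group, with a chi-square per degree of freedom of 18.5 over genes, against 13.2 for the Gdf9-Cre pair and 5.27 to 11.8 for pairs of the other groups. All pairs differed by more than sampling noise.

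Of the 7 genes, 5 were among the most abundant transcripts of the oocyte when levels were taken per transcript length, as the TPM of the deposited table, which sum to 1000000 per library. In wt/fl, *Gdf9* reached 5943 ± 1233 TPM (SD, n = 4) and ranked 12 of 22281 genes listed above 0. *Oosp1* followed with 3596 ± 439 TPM (rank 25), *Oosp3* with 2499.9 ± 117 (rank 48), *Oosp2* with 2459.6 ± 169 (rank 50) and *Bmp15* with 1875 ± 337 (rank 66). *Bmp6* and *Kit* were far lower, at 32.6 ± 4.55 and 28.3 ± 8.15 TPM, ranks 3756 and 4075. Together the 7 genes made up 1.41% to 1.97% of all TPM of a library, with a median of 1.70%.

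The order of levels per length held within most libraries. *Gdf9* was above *Oosp1* in 20 of 21 libraries, the exception being Zp3-Cre replicate 1, where the ratio of their TPM was 0.88. *Oosp1* was above *Oosp3* in all 21, by 1.22 to 1.62 times. *Oosp3* and *Oosp2* could not be ordered: *Oosp3* was the higher of the 2 in 10 libraries and the lower in 11, with a median ratio of 1.00. *Oosp2* was above *Bmp15* in 20 libraries, and *Bmp15* was above *Bmp6* in all 21, by 29.39 to 86.86 times. *Bmp6* and *Kit* were also not ordered, with *Bmp6* higher in 11 libraries and lower in 10.

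**Figure D1:**
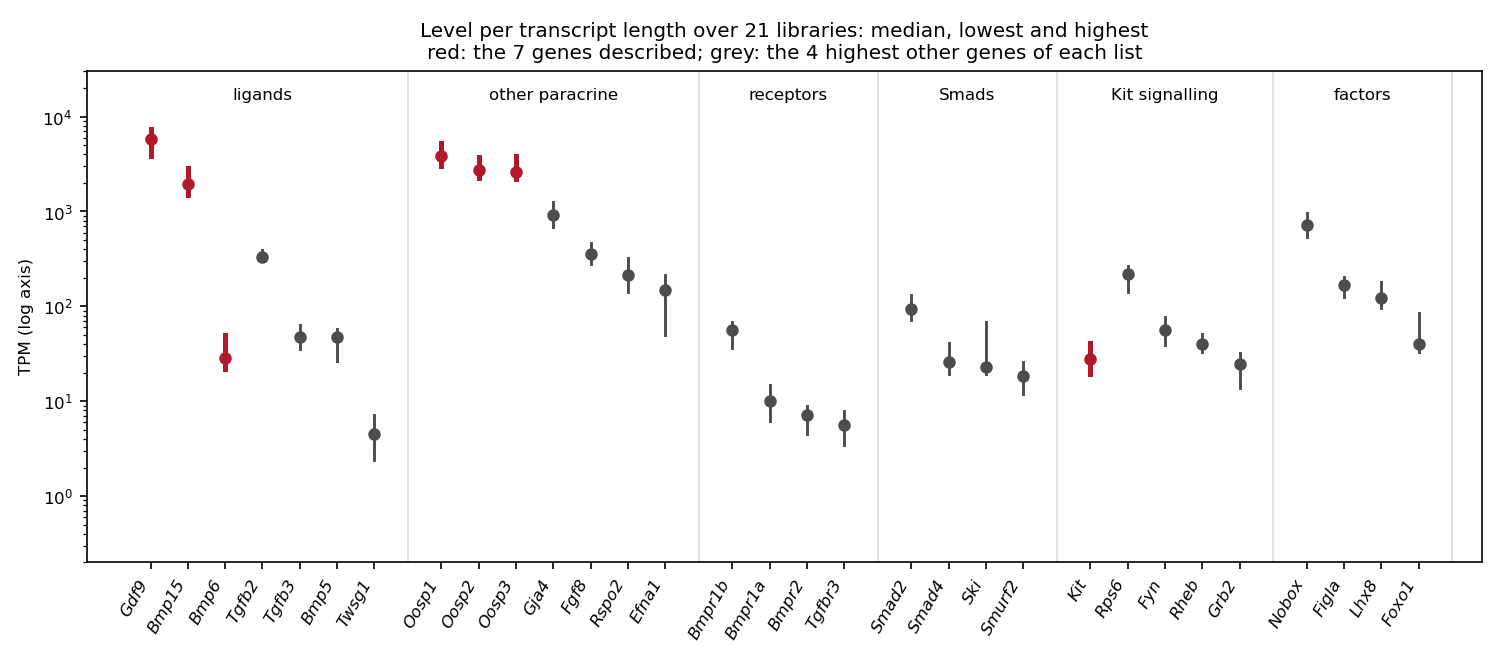
Level per transcript length (TPM, log axis) of the 7 genes in red and of the 4 highest other genes of each pathway list in grey. Points are medians and bars run from the lowest to the highest of 21 libraries. Gdf9, Bmp15 and the 3 Oosp genes lie above every other gene shown, with medians from 1924 to 5830.1 TPM, and Bmp6 and Kit run from 19.5 to 50.2 TPM.

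The other genes of the pathway lists were all below the 5 abundant genes, and several were above *Bmp6* and *Kit*. A median of at least 10 TPM was reached by 11 of 24 genes of KIT signalling and by 8 of 15 paracrine genes, the *Oosp* genes included. Of the 28 ligands and antagonists of the TGF-beta family, 20 had a median below 1 TPM over the 21 libraries and 6 had at least 10 TPM: *Gdf9*, *Bmp15*, *Bmp6*, *Tgfb2*, *Tgfb3* and *Bmp5*. *Tgfb2*, which encodes a TGF-beta ligand, was at 324 TPM in wt/fl, and *Bmp2*, *Bmp4* and *Nodal* were listed at 0 in every library. Among 14 receptors and coreceptors, *Bmpr1b*, a type I receptor for BMPs, was the highest at 57.3 TPM in wt/fl, while *Bmpr2*, the type II receptor used by GDF9 and BMP15, was at 7.27. *Smad2*, the receptor-regulated SMAD downstream of GDF9 in follicle cells, was at 97.4 TPM and *Smad4*, the common partner, at 31.0. Of the 5 proprotein convertases, enzymes that cut such ligands out of their precursors, none had a median of 10 TPM, and *Pcsk6* was the highest at 4.73 TPM in wt/fl. *Kitl*, the gene of KIT ligand, which granulosa cells make, was at 1.49 TPM against 28.3 for *Kit*.

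Between libraries the 7 genes varied about as much as other genes of the oocyte, *Bmp6* and *Kit* somewhat more. The highest library was 1.76 to 2.26 times the lowest for each gene, and the coefficient of variation was 14.4% for *Oosp2*, 15.9% for *Gdf9*, 16.2% for *Oosp1*, 16.4% for *Oosp3*, 16.8% for *Bmp15*, 19.8% for *Kit* and 21.4% for *Bmp6*. Over 4893 genes with a mean of at least 30 CPM the median coefficient was 14.6%, with quartiles of 11.5% and 18.3%. *Bmp6* and *Kit* lay above the upper quartile and the other 5 between the quartiles. The 4893 genes were not matched to the 7 for level, on which the coefficient can depend.

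**Figure D2:**
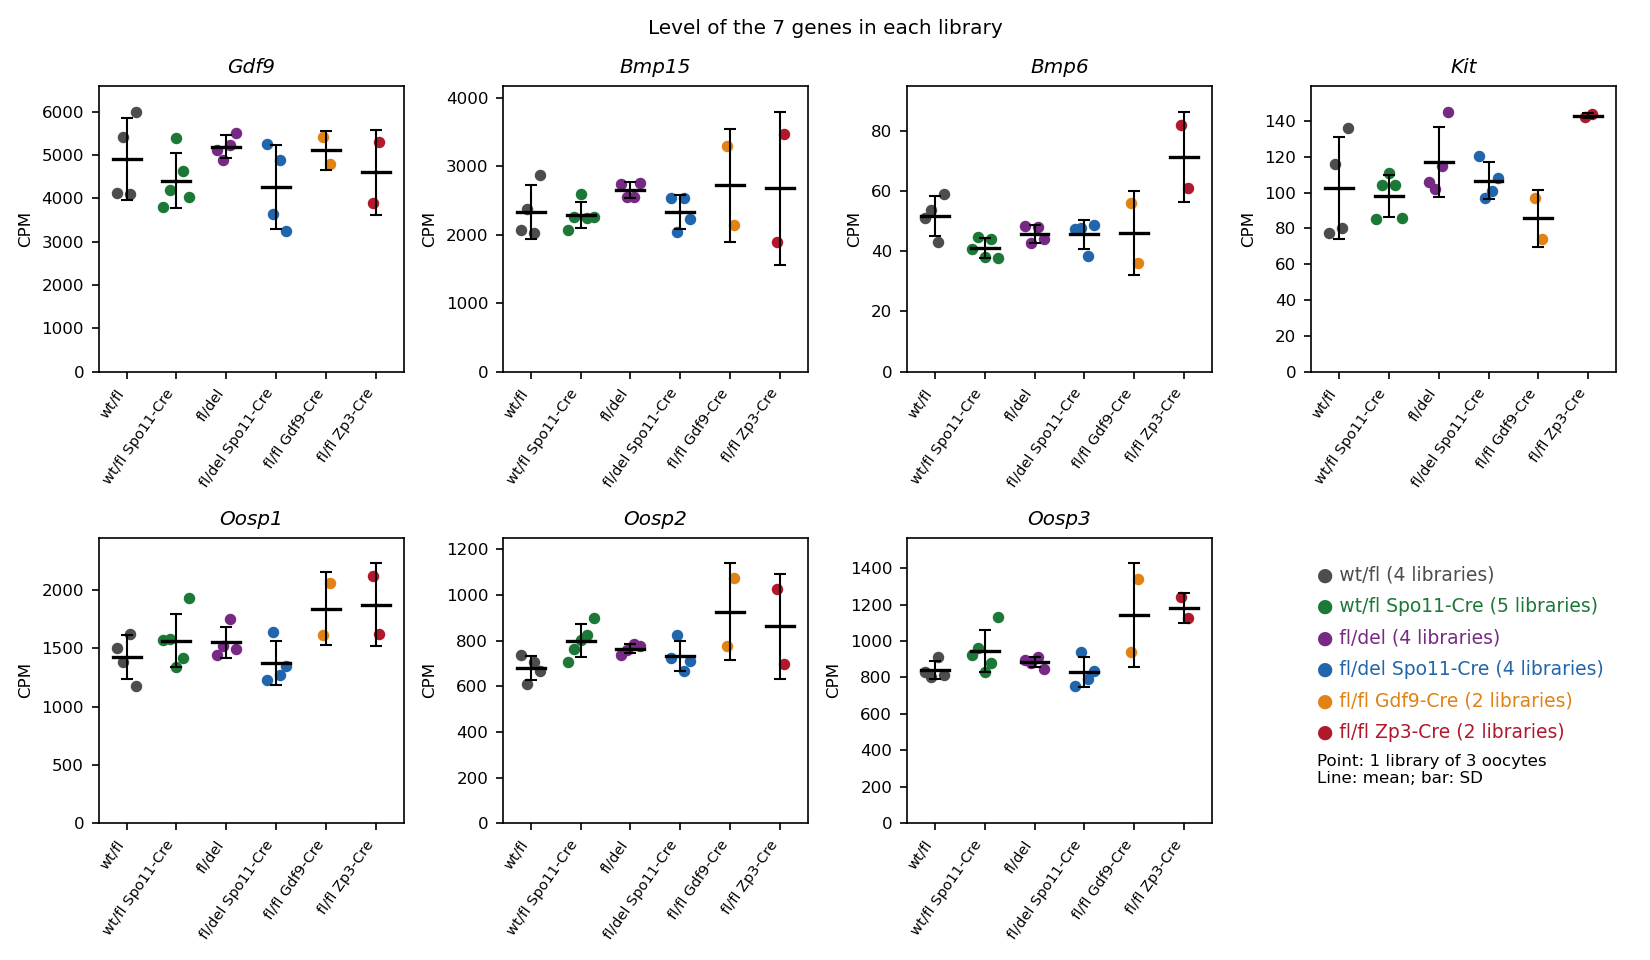
Level (CPM, axes from 0) of each of the 7 genes in each of 21 libraries, by genotype and Cre driver. Each point is a library of 3 oocytes, lines are group means and bars are the SD. All libraries of a group stand above those of wt/fl for Bmp6 and Kit in Zp3-Cre, at 60.8 to 81.8 and 142 to 144 CPM, for Oosp3 in Gdf9-Cre and Zp3-Cre, at 941 to 1342 CPM, and for Oosp2 in Gdf9-Cre and fl/del. The other groups overlap wt/fl.

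Each library pooled 3 oocytes, so fewer oocytes with a transcript among them and less of it per oocyte cannot be told apart. No gene of the 7 differed between groups at an adjusted p under 0.05 in any of 7 comparisons by edgeR's quasi-likelihood test with Benjamini-Hochberg adjustment over all genes tested. Spo11-Cre in the wt/fl genotype gave 0 calls of 7 against wt/fl, where 2.19% of 22383 genes were called. The count was also 0 for fl/del, where 0.0223% of genes were called, in fl/del Spo11-Cre with 0.197%, and in the interaction of Cre and del with 0.103%. In the fit of 21 libraries it was 0 in Gdf9-Cre against wt/fl with 1.48% of 23225 genes called, in Zp3-Cre against wt/fl with 2.27%, and in Gdf9-Cre against Zp3-Cre with 0.891%. At such shares a list of 7 genes would mostly hold no call, so the count of 0 is near the background. In simulated data, from 13% (between the drivers) to 74.1% (wt/fl Spo11-Cre) of 2-fold changes were recovered, so changes can be missed. At an unadjusted p under 0.05 the counts were 3, 2, 0, 3, 3, 4 and 2 of 7 in the same order, where 3358 of the 22383 genes tested passed in the first comparison and 8.52%, 10.4%, 10.3%, 11.7%, 13.1% and 7.14% in the others. DESeq2, with which the study tested *Kif11*, called 1 of 7 in 4 of the comparisons: *Oosp2* in wt/fl Spo11-Cre, where it called 4.16% of the genes fitted, *Oosp3* in Gdf9-Cre (3.15%), *Oosp3* in Zp3-Cre (3.78%) and *Kit* between the drivers (1.64%). It called 0 of 7 in fl/del (0.0938%), in fl/del Spo11-Cre (0.706%) and in the interaction (0.331%).

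**Figure D3:**
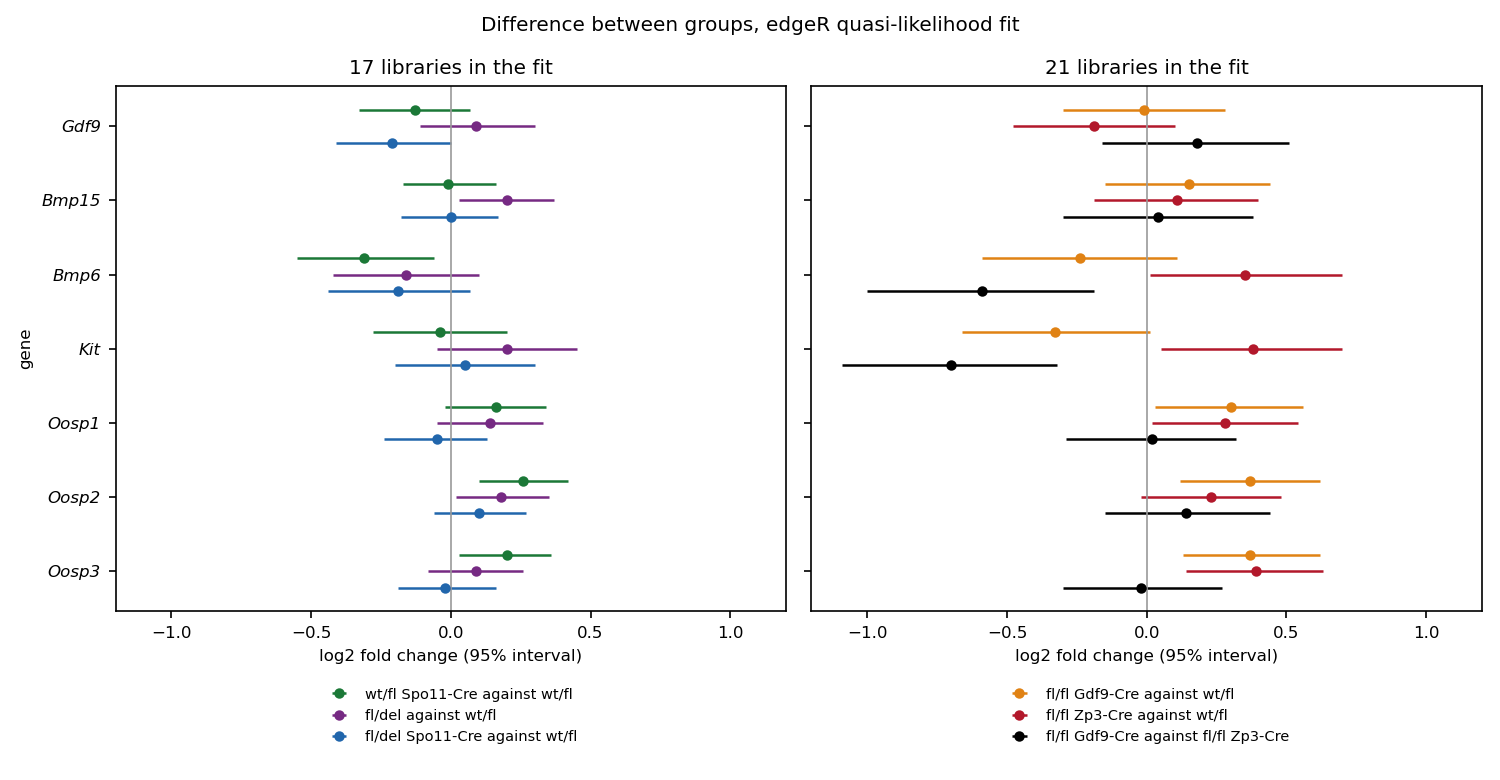
Log2 fold change of each of the 7 genes with its 95% interval from the edgeR fit. The left panel shows the 3 groups of the Spo11-Cre background against wt/fl, and the right panel the fl/fl groups against wt/fl and against each other. No interval reaches beyond 0.70 on the log2 scale in either direction except those of Bmp6 and Kit between the Cre drivers, of which that of Kit runs to -1.09.

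*Gdf9*, the ligand gene whose promoter drives a Cre, had a similar level with and without that transgene. It was at 5426 and 4794 CPM in the 2 Gdf9-Cre libraries, at 4120.0, 5424, 4089.5 and 5993 CPM in wt/fl and at 3898 and 5296 CPM in Zp3-Cre. Both Gdf9-Cre libraries fell inside the range of the controls. The log2 fold change of Gdf9-Cre against wt/fl was -0.01 (SE 0.14, 95% interval -0.30 to 0.28, adjusted p = 1.00), which as a ratio is 0.81 to 1.21. Against Zp3-Cre it was 0.18 (SE 0.17, interval -0.16 to 0.51, adjusted p = 0.826), and Zp3-Cre against wt/fl gave -0.19 (SE 0.15, adjusted p = 0.615). *Zp3*, which encodes a zona pellucida protein and gives its promoter to the other Cre, was at 2897 and 3336 CPM in Zp3-Cre and at 3436 to 4456 CPM in wt/fl, a log2 fold change of -0.43 (SE 0.11, adjusted p = 0.0228). That call was lost when Zp3-Cre replicate 1 was left out (adjusted p = 0.550), and also without wt/fl replicate 2 (0.0887) or 4 (0.0965).

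In the Spo11-Cre background *Gdf9* was highest in fl/del, at 5106, 4888, 5237 and 5518 CPM. It was at 3793, 4196, 5396, 4643 and 4033 CPM in wt/fl Spo11-Cre and at 5265, 3646, 4882 and 3249 CPM in fl/del Spo11-Cre. Every neighbour in the order of the 6 group means, from 5187 ± 263 CPM in fl/del to 4260.4 ± 966 in fl/del Spo11-Cre, overlapped the next. The log2 fold change against wt/fl was -0.21 in fl/del Spo11-Cre (SE 0.10, interval -0.41 to 0.00, adjusted p = 0.482), -0.13 in wt/fl Spo11-Cre (adjusted p = 0.585) and 0.09 in fl/del (adjusted p = 0.860).

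*Bmp15*, the X-linked partner of *Gdf9*, was at 2068, 2369.6, 2024 and 2874 CPM in wt/fl and at 2743, 2545, 2556 and 2754 CPM in fl/del. The fl/del libraries lay within the range of wt/fl, with a log2 fold change of 0.20 (SE 0.09, interval 0.03 to 0.37, adjusted p = 0.580). In wt/fl Spo11-Cre and fl/del Spo11-Cre the change was -0.01 and -0.00, with intervals of -0.17 to 0.16 and -0.18 to 0.17. The fl/fl libraries spread most: 3299 and 2137 CPM with Gdf9-Cre, and 1886 and 3463 CPM with Zp3-Cre. The Zp3-Cre pair holds both the lowest and the highest value of the series. The difference between the drivers was 0.04 (SE 0.17, interval -0.30 to 0.38, adjusted p = 1.00), and it was -0.36 without Zp3-Cre replicate 1 and 0.61 without replicate 2, where it passed the threshold (adjusted p = 0.0493).

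The ratio of *Gdf9* to *Bmp15* counts within a library, which does not depend on the library total, was 2.10 ± 0.134 (SD, n = 4) in wt/fl and between 1.80 and 1.96 on average in the other 5 groups. All 5 means were below that of wt/fl, but all 5 were set against the same 4 wt/fl libraries and so are not separate results. The lowest library was fl/del Spo11-Cre replicate 4 at 1.46 and the highest wt/fl replicate 2 at 2.29. The largest differences in mean log2 ratio against wt/fl were -0.24 in Zp3-Cre and -0.22 in fl/del Spo11-Cre, and none of 6 comparisons passed a two-sided exact permutation test (unadjusted p from 0.0857 to 0.667, adjusted p from 0.286 to 0.667). With a library left out they ran from -0.45 to -0.02 and from -0.29 to -0.12. The smallest p possible was 0.0667 for 2 against 4 libraries and 0.333 for 2 against 2, so those comparisons could not pass. The test treats libraries as independent, though a mouse gave 1 or 2 of them. Library names hold 2 prefixes each in wt/fl, fl/del and fl/del Spo11-Cre, and 3 in wt/fl Spo11-Cre. With 2 prefix means against 2, the smallest p is again 0.333. Per length, the TPM ratio was 3.16 ± 0.202 in wt/fl.

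*Bmp6*, the low-level ligand, had the widest relative spread. It was at 51.0, 53.7, 43.1 and 59.0 CPM in wt/fl, at 40.8, 44.8, 38.1, 44.0 and 37.6 CPM in wt/fl Spo11-Cre, and at 38.3 to 48.7 CPM in the fl/del groups. Spo11-Cre on wt/fl gave -0.31 (SE 0.12, interval -0.55 to -0.06, adjusted p = 0.201). In Zp3-Cre both libraries, at 81.8 and 60.8 CPM, lay above every other library of the series, with a log2 fold change of 0.35 against wt/fl (SE 0.17, adjusted p = 0.369). The Gdf9-Cre libraries were at 55.9 and 36.1 CPM, and Gdf9-Cre against Zp3-Cre gave -0.59 (SE 0.20, adjusted p = 0.223). Without Gdf9-Cre replicate 1 it was -0.94, with an adjusted p of 0.0435. Exons of *Bmp6* and of *Txndc5* on the other strand overlap by 224 bases, and the library kit does not mark strand. *Txndc5* was at 175 and 181 CPM in Zp3-Cre, 122 and 138 in Gdf9-Cre and 101 to 175 in wt/fl, and its part in the *Bmp6* values was not tested.

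*Kit*, the receptor, gave the lowest adjusted p of the 7 genes. It was at 142 and 144 CPM in Zp3-Cre and at 97.0 and 74.3 CPM in Gdf9-Cre, against 77.7, 116, 80.5 and 136 CPM in wt/fl. The 2 driver groups did not overlap, and both Zp3-Cre libraries lay above all wt/fl libraries. Gdf9-Cre against Zp3-Cre gave a log2 fold change of -0.70 (SE 0.19, 95% interval -1.09 to -0.32, adjusted p = 0.0547), a ratio of 0.61. DESeq2 gave -0.71 with an adjusted p of 0.0290, and over 12 alternatives the adjusted p of edgeR and DESeq2 ran from 0.0113 to 0.796. With Zp3-Cre against wt/fl the change was 0.38 (SE 0.16, adjusted p = 0.286) and with Gdf9-Cre against wt/fl -0.33 (SE 0.17, adjusted p = 0.437). In the Spo11-Cre background the group means were 97.9 to 117 CPM, every neighbour in their order overlapped, and the adjusted p-values were 0.656 to 0.957.

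*Oosp1*, the most abundant of the secreted protein family, was at 1506, 1387, 1628 and 1179.8 CPM in wt/fl. It was at 1618 and 2065 CPM in Gdf9-Cre and at 2125 and 1622 CPM in Zp3-Cre. The log2 fold changes were 0.30 (SE 0.13, adjusted p = 0.340) and 0.28 (SE 0.13, adjusted p = 0.341), and each group had a library inside the control range. Without replicate 2 of Gdf9-Cre the first was 0.12 and without replicate 1 it was 0.47, and without replicate 1 of Zp3-Cre the second was 0.13 and without replicate 2 it was 0.43. In the Spo11-Cre background its group means were 1375 to 1568 CPM and overlapped.

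*Oosp2* was at 735, 611, 707 and 666 CPM in wt/fl and at 706, 765, 804, 823 and 899 CPM in wt/fl Spo11-Cre. Of the latter, 4 of 5 lay above all controls, with a log2 fold change of 0.26 (SE 0.08, interval 0.10 to 0.42, adjusted p = 0.0671). DESeq2 called it (0.26, adjusted p = 0.0235), as did edgeR with no filter on low counts (adjusted p = 0.0482) and with replicate 1 of wt/fl Spo11-Cre left out (0.0248), and over all alternatives the adjusted p ran from 0.0235 to 0.293. In fl/del, at 737, 760.0, 784 and 776 CPM, every library was above every control, with a change of 0.18 (SE 0.08, adjusted p = 0.580). In Gdf9-Cre, at 775 and 1075 CPM, it was 0.37 (SE 0.13, interval 0.12 to 0.62, adjusted p = 0.140), which became 0.60 (adjusted p = 0.0162) without replicate 1 and 0.12 (adjusted p = 0.900) without replicate 2. In Zp3-Cre the libraries were at 1025 and 698 CPM, on either side of the control maximum, and the change of 0.23 became 0.45 (adjusted p = 0.0488) without replicate 2 and -0.01 (adjusted p = 1.00) without replicate 1.

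*Oosp3* was at 828, 802, 910.5 and 813 CPM in wt/fl, at 941 and 1342 CPM in Gdf9-Cre and at 1241 and 1124 CPM in Zp3-Cre. All 4 fl/fl libraries lay above the controls. The log2 fold change was 0.37 with Gdf9-Cre (SE 0.12, interval 0.13 to 0.62, adjusted p = 0.128) and 0.39 with Zp3-Cre (SE 0.12, interval 0.14 to 0.63, adjusted p = 0.0843). DESeq2 called both, with adjusted p-values of 0.0459 and 0.0302. The Gdf9-Cre value was 0.62 without replicate 1 and 0.10 without replicate 2. The Zp3-Cre value stayed between 0.36 and 0.44 with any library left out, which concerns its size and not whether it passed the test. The drivers differed by -0.02 (interval -0.30 to 0.27). In the Spo11-Cre background the group means were 831 to 944 CPM and overlapped. Exons of *Oosp3* overlap those of *Gm19224* on the other strand by 57 bases, and *Gm19224* had no counts in any library.

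Counts of genes whose groups did not overlap are given beside the share among all genes tested. Against wt/fl, 1 of 7 genes did not overlap in fl/del (*Oosp2*, with 2.99% of all genes tested), 2 in Gdf9-Cre (*Oosp2* and *Oosp3*, with 18.0%) and 3 in Zp3-Cre (*Bmp6*, *Kit* and *Oosp3*, with 16.8%). Between the drivers 2 did not overlap (*Bmp6* and *Kit*, with 27.7%). In wt/fl Spo11-Cre and fl/del Spo11-Cre there were 0, with 4.95% and 4.18% of genes. Groups of 2 libraries give large background shares of this kind. Among the 4893 genes with a mean of at least 30 CPM, as all 7 have, the shares were higher: 5.40% in fl/del, 32.4% in Gdf9-Cre, 27.3% in Zp3-Cre, 31.2% between the drivers, 13.4% in wt/fl Spo11-Cre and 7.83% in fl/del Spo11-Cre.

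The interaction asks whether Spo11-Cre went with another change in fl/del than in wt/fl. None of the 7 terms passed adjustment. *Oosp1*, *Oosp2* and *Oosp3* had interaction terms of -0.36 (SE 0.13, adjusted p = 0.292), -0.34 (SE 0.12, adjusted p = 0.267) and -0.30 (SE 0.12, adjusted p = 0.331) on the log2 scale. In wt/fl, the 3 genes averaged 1568, 799.5 and 944 CPM with Cre and 1425, 679.7 and 838 CPM without it. In fl/del they averaged 1375, 732 and 831 CPM with Cre and 1553, 764 and 883 CPM without it. The terms of *Gdf9*, *Bmp15*, *Bmp6* and *Kit* were -0.17, -0.20, 0.29 and -0.11, with adjusted p-values of 0.582 to 0.909.

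Of the 21 pairs of these genes, 6 had a Pearson correlation across libraries that passed adjustment: the 3 pairs among *Gdf9*, *Bmp15* and *Kit* and the 3 among the *Oosp* genes. Over the 17 libraries of the Spo11-Cre background, log2 CPM of *Gdf9* and *Bmp15* correlated with r = 0.84 (permutation p = 5.00e-05, adjusted over 21 pairs 5.25e-04; Spearman's rho 0.84, p = 1.10e-04, adjusted p = 0.00115). It was 0.87 within groups, 0.89 without the 2 libraries farthest from the median, and 0.73 over 9 means of libraries whose names share a prefix. *Kit* correlated with both, at r = 0.68 with *Gdf9* (permutation p = 0.00251, adjusted p = 0.0132; rho 0.78, p = 3.70e-04) and 0.80 with *Bmp15* (permutation p = 1.10e-04, adjusted p = 7.70e-04; rho 0.75, p = 8.90e-04), and at 0.89 and 0.72 without the 2 farthest libraries. Over all 21 libraries these were lower, at 0.44 and 0.49, and the r of *Gdf9* and *Bmp15* was 0.75. *Oosp1* and *Oosp3* correlated with r = 0.88 (permutation p = 1.00e-05, the smallest that the permutations can give, adjusted p = 2.10e-04; rho 0.88, p = 1.00e-05), which was also 0.88 within groups and 0.85 without the 2 farthest. For *Oosp1* with *Oosp2*, and for *Oosp2* with *Oosp3*, r was 0.61 and 0.67 (permutation p = 0.0100 and 0.00395, adjusted p = 0.0351 and 0.0166; rho 0.52 and 0.57, p = 0.0339 and 0.0181, adjusted p = 0.0829 and 0.0762), and it was 0.35 and 0.42 without the 2 farthest libraries, so these relations rest in part on those libraries. Values of libraries from the same mouse are not independent, and CPM shares a total within a library.

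No pair of an *Oosp* gene with *Gdf9*, *Bmp15*, *Bmp6* or *Kit* passed adjustment over the 21 pairs. The pooled r of *Gdf9* with *Oosp1* was -0.45 (permutation p = 0.0719, adjusted p = 0.126; rho -0.52, p = 0.0355, adjusted p = 0.0829), within groups -0.70 and over the 9 prefix means -0.20. That of *Bmp15* with *Oosp1* was -0.48 (permutation p = 0.0489, adjusted p = 0.113; rho -0.43, p = 0.0837), within groups -0.77 and over the prefix means -0.11. No pair that includes *Bmp6* passed adjustment either.

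The *Oosp* genes moved with other short transcripts. Their exons add up to under 1000 bases, while those of the other 4 genes add up to 2031 to 8911. The 229 other genes with exons under 1000 bases and a mean of at least 30 CPM were summarised, per library, by the median difference of log2 CPM from the mean over libraries, which ran from -0.23 in Zp3-Cre replicate 2 to 0.25 in wt/fl Spo11-Cre replicate 5. Over 17 libraries this median correlated with *Oosp2* at r = 0.84 (permutation p = 2.00e-05, adjusted over 7 genes 1.40e-04; rho 0.80, p = 2.70e-04), with *Oosp1* at 0.77 (permutation p = 3.50e-04, adjusted p = 0.00122; rho 0.63, p = 0.00791) and with *Oosp3* at 0.74 (permutation p = 9.30e-04, adjusted p = 0.00217; rho 0.61, p = 0.0117). Within groups r was 0.81, 0.88 and 0.78, and without the 2 farthest libraries 0.73, 0.63 and 0.47. Over all 21 libraries it was 0.81, 0.68 and 0.54. For *Gdf9*, *Bmp15*, *Bmp6* and *Kit* r over the 17 libraries was -0.43, -0.37, -0.49 and -0.35, with adjusted p-values of 0.0764 to 0.174 by the same permutation test. Over all 21 libraries these were -0.47, -0.64, -0.29 and -0.37.

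Between groups the short genes and the *Oosp* genes are set side by side. In wt/fl Spo11-Cre against wt/fl, the median log2 fold change of the short genes was 0.19, with 22 of 229 (9.61%) called higher and 0 lower. Of all genes tested, 0.867% were called higher, but these include genes below the mean of 30 CPM required of the short genes. The shares are therefore not matched for level, and how much of their difference goes with transcript length was not tested. The median of all genes was 0.03, and *Oosp1*, *Oosp2* and *Oosp3* were at 0.16, 0.26 and 0.20. In fl/del the median of the short genes was 0.12, against 0.14, 0.18 and 0.09 for the *Oosp* genes. In fl/del Spo11-Cre it was 0.11, with 4 called higher and 0 lower, against -0.05, 0.10 and -0.02 for the *Oosp* genes. Of all genes tested, 0.197% were called in fl/del Spo11-Cre in either direction, again not matched for level. In the interaction the short genes had a median of -0.20, against -0.36, -0.34 and -0.30 for the *Oosp* genes. In Gdf9-Cre and Zp3-Cre against wt/fl the short genes had medians of 0.08 and -0.03, below the 0.23 to 0.39 of the 3 *Oosp* genes, and between the drivers 0.11, against 0.02, 0.14 and -0.02. The part of transcript length in the *Oosp* values was not tested.

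**Figure D4:**
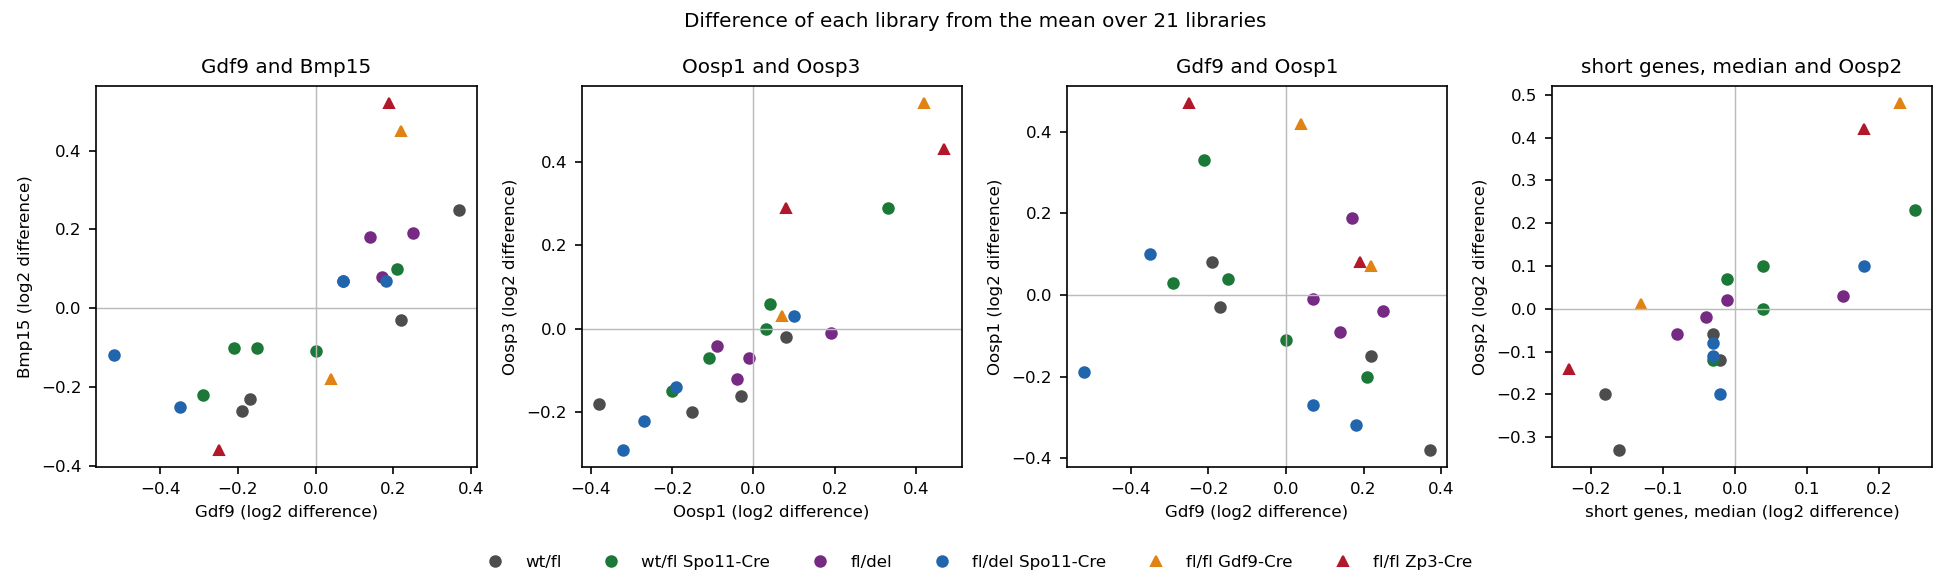
Difference in log2 CPM of each of 21 libraries from the mean over libraries, for Gdf9 and Bmp15, Oosp1 and Oosp3, Gdf9 and Oosp1, and the median of 229 short genes and Oosp2. Circles are the Spo11-Cre background and triangles the fl/fl libraries. Over the 17 circles r was 0.84, 0.88, -0.45 and 0.84 from left to right.

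The genes whose log2(CPM + 1) followed each of the 7 most closely over all 21 libraries were named from 7755 genes with a mean of at least 10 CPM. For *Gdf9* they were *Padi6*, an oocyte gene of the cytoplasmic lattices (Pearson's r 0.830), and *Aplp2* (0.789). For *Bmp15* they were *Crbn* (0.843) and *Padi6* (0.841), and *Padi6* ran from 1836 to 4373 CPM over the series. For *Bmp6* they were *Mvp* and *Bcar3* (both 0.889), and for *Kit* *Ddb1* (0.836) and *Glce* (0.817). For *Oosp1* they were *Smim11* (0.920) and *Magoh* (0.905), for *Oosp2* *Snrpe* (0.923) and *Sec61g* (0.915), and for *Oosp3* *Oosp1* (0.899) and *Snrnp27* (0.881). Each value is the top of 7755 and is a description.

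Few genes of the surrounding pathways passed the test, in lists drawn up with earlier results of these data known. Of all genes tested, 0.0223% (fl/del) to 2.27% (Zp3-Cre) were called, so a count of 0 in a short list is near the background. Among the ligands and antagonists, which include *Gdf9*, *Bmp15* and *Bmp6*, the receptors and the proprotein convertases, 0 of the 16 or 17, 10 and 4 genes tested were called in each of the 7 comparisons, with list medians between -0.37 and 0.25 where the median of all genes was between -0.01 and 0.03. Of 10 transcription factors known to act on these genes, 1 was called in wt/fl Spo11-Cre, where 2.19% of all genes tested were called. It was *Nobox*, which was lower, at 521 ± 54.4 CPM (SD, n = 5) against 707 ± 77.9 (n = 4) in wt/fl. The log2 fold change was -0.42 (SE 0.09, edgeR adjusted p = 0.00305). All 18 alternatives kept that call, with adjusted p-values of 9.39e-05 to 0.0257. *Gdf9* in the same comparison was at -0.13 (adjusted p = 0.585). *Nobox* was at -0.06 in Gdf9-Cre (adjusted p = 0.934). In fl/del without Cre it was at 592 ± 52.1 CPM, a change of -0.24 against wt/fl (adjusted p = 0.527). In fl/del with Spo11-Cre it was at 621 ± 76.7 CPM, a change of -0.19 (adjusted p = 0.452). So *Nobox* was not lower with Spo11-Cre than without it in fl/del. The interaction term was 0.46 (SE 0.12, adjusted p = 0.120).

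Among 13 paracrine genes of the oocyte that could be tested, the 3 *Oosp* genes included, 1 was called higher in Gdf9-Cre. Between the drivers 1 of the 13 was also called, with 0.891% of all genes tested. In Gdf9-Cre against wt/fl, 1.48% of all genes tested were called in either direction. *Rspo2*, which encodes an R-spondin that acts on WNT signalling, was at 555 and 712 CPM there, at 427 to 443 CPM in wt/fl and at 414 and 289 CPM in Zp3-Cre. The log2 fold change was 0.48 against wt/fl (SE 0.12, adjusted p = 0.0172) and 0.89 against Zp3-Cre (SE 0.14, adjusted p = 5.34e-05). The former was lost without Gdf9-Cre replicate 2 (log2 fold change 0.30) and with libraries summed by name prefix (adjusted p = 0.156). The latter was called with any library left out, and was not called when only the 4 libraries compared were fitted (adjusted p = 0.406).

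In KIT signalling, 1 of 23 genes tested, *Kit* included, rose in wt/fl Spo11-Cre, where 2.19% of all genes were called in either direction. It was *Rps6*, a ribosomal protein whose phosphorylation follows KIT and mTOR activity, with 0.42 (SE 0.10, adjusted p = 0.00857). All 18 alternatives kept it. In Zp3-Cre, where 2.27% of all genes were called in either direction, 2 of 23 rose. They were *Mtor*, the growth kinase, with 1.14 (SE 0.29, adjusted p = 0.0168) and *Foxo3*, the factor that keeps primordial oocytes dormant, with 0.82 (SE 0.21, adjusted p = 0.0167). In the same group 2 of 18 SMAD genes and regulators rose, *Ski*, a repressor of SMAD activity, with 1.04 (SE 0.18, adjusted p = 1.11e-04) and *Smad3* with 0.85 (SE 0.19, adjusted p = 0.00416), and so did *Foxo1*, a relative of *Foxo3*, with 0.60 (SE 0.14, adjusted p = 0.00693). *Foxo1* was also lower in Gdf9-Cre than in Zp3-Cre (-0.77, SE 0.17, adjusted p = 0.00544), but was not called when only the 4 libraries compared were fitted (0.712). All of these calls on Zp3-Cre were lost without its replicate 1 (adjusted p = 0.299 to 0.957), *Mtor* also without wt/fl replicate 3 (0.0825), *Foxo3* also without wt/fl replicate 4 (0.0559) and the lower *Foxo1* of Gdf9-Cre also without its replicate 2 (0.0859). Replicate 1 of Zp3-Cre was at 158 CPM for *Ski*, 102 for *Smad3*, 84.2 for *Foxo3*, 27.4 for *Mtor* and 310.1 for *Foxo1*, against 86.1, 49.1, 34.3, 19.4 and 178 CPM in replicate 2.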

How the data were processed

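Libraries were made from poly(A) RNA of 3 oocytes each. After trimming (fastp) and alignment to GRCm38 (HISAT2 2.2.1), the authors obtained gene counts from uniquely mapped reads with featureCounts 2.0.3 and Ensembl genes, and deposited them as raw counts without normalization. The submitters' processing notes name the same tools. The authors also deposited TPM, scaled to a sum of 1000000 per library by a method not given in the sources used here. How read pairs, strand and reads over 2 genes were treated is not given either. Counts with *Kif11* counted over all exons were used, and the table with *Kif11* counted over exon 22 alone was an alternative. The exon 22 table differed in more than *Kif11*. Over 6867 genes the median ratio of all-exon counts to its counts was 1.95, for a reason not given. The tables for exon 1, which lack the fl/fl libraries, and the TPM table for exon 22 were not used here.

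The 7 genes and the gene lists were chosen with earlier results of these data known. Symbols were matched for 54079 of 54232 genes. CPM was computed here from library totals of 7205010 to 18454549 counts. Genes counted at all in 3 or more libraries were tested with edgeR 4.0.16 in R 4.3.3 (TMM factors, quasi-likelihood F-test) and called at a Benjamini-Hochberg adjusted p under 0.05, fitting 17 libraries for the Spo11-Cre background and 21 for comparisons with fl/fl. The ratio of *Gdf9* to *Bmp15* was tested with two-sided exact permutation tests, and correlations with 100000 permutations (Python 3.11.15, scipy 1.17.1). Alternatives were DESeq2 1.42.0, other factors, filters, fits and count tables, summing libraries by name prefix, a replicate block and leaving out each library. Named beside the 7 genes are *Kif11*, up to 3 called genes of each list and direction by size of change, and the 2 genes most like each of the 7. Levels named from the pathway lists, and *Txndc5*, *Gm19224* and single markers, were chosen after their values were seen. The fits were tested on simulated data.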

Additional observations from a re-analysis of the deposited data

Results flagged for a closer look

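*Bmp6* in fl/del Spo11-Cre replicate 3, at 38.3 CPM, lay far from the other 3 libraries of its group, which were at 47.4 to 48.7 CPM. The gap to the nearest of them was 0.88 of the range of the group. Of 28 groups of 4 or 5 libraries tested for the 7 genes, 1 had such a library, and chance flags about 1 in 20 groups.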

How the results depend on the processing

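Of 413 fold changes of the 7 genes recomputed under settings other than leaving out a library, 398 kept their direction and side of the threshold, 11 passed the threshold and 4 changed direction. The 4 were *Kit* in wt/fl Spo11-Cre (0.01), *Bmp15* in fl/del Spo11-Cre (0.00) and *Gdf9* in Gdf9-Cre (0.03), all with the replicate number as a block, and *Oosp3* between the drivers when only those 4 libraries were fitted (0.01). The count of members called became 1 for wt/fl Spo11-Cre and for Zp3-Cre with DESeq2 and with no filter, for Gdf9-Cre with DESeq2, and between the drivers with DESeq2, no filter, RLE factors, the exon 22 table, summed prefixes and the replicate block. Genes called were 931, 21, 158, 74, 731, 879 and 381 with DESeq2 in the order of the report (wt/fl Spo11-Cre first and the drivers last). With no filter they were 742, 80, 185 and 138 for the first 4, and with filterByExpr 2, 29 and 2 for fl/del, fl/del Spo11-Cre and the interaction. With the block they were 96, 230 and 96 for those 3. The fit of all 21 libraries gave 252 for wt/fl Spo11-Cre and 4 for the interaction. The exon 22 table, which also held lower counts for genes other than *Kif11*, gave 83 (fl/del Spo11-Cre) and 42 (interaction). Summed prefixes gave 11, 179 and 323 for the interaction, Gdf9-Cre and Zp3-Cre. Fits of only the groups compared gave 204 for Zp3-Cre and 7 between the drivers. The cause of these changes was not tested. Replicate numbers did not pair the libraries: over 42 pairs of same-numbered libraries, deviations from the group means correlated at -0.33 to 0.27, with 8 over 0.1.

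With each library left out in turn, genes called ranged from 179 (without wt/fl replicate 2) to 575 for wt/fl Spo11-Cre, 1 to 18 in fl/del, 30 to 71 in fl/del Spo11-Cre, 4 to 60 in the interaction, 99 (without Gdf9-Cre replicate 2) to 407 for Gdf9-Cre, 133 (without Zp3-Cre replicate 1) to 1227 (without replicate 2) for Zp3-Cre and 127 to 398 between the drivers. Members called were 0 to 1 for wt/fl Spo11-Cre and Zp3-Cre, and 0 to 2 for Gdf9-Cre and the drivers. Of 406 fold changes, 36 changed direction. Their ranges were, for wt/fl Spo11-Cre, -0.06 to 0.11 for *Bmp15* and -0.16 to 0.13 for *Kit*. For fl/del Spo11-Cre they were -0.06 to 0.12 for *Bmp15*, -0.06 to 0.22 for *Kit*, -0.16 to 0.02 for *Oosp1* and -0.09 to 0.03 for *Oosp3*, and for the interaction -0.28 to 0.01 for *Kit*. For Gdf9-Cre they were -0.09 to 0.10 for *Gdf9*, -0.19 to 0.44 for *Bmp15* and -0.58 to 0.05 for *Bmp6*. For Zp3-Cre they were -0.47 to 0.06 for *Gdf9*, -0.45 to 0.52 for *Bmp15* and -0.01 to 0.45 for *Oosp2*. Between the drivers they were -0.06 to 0.47 for *Gdf9*, -0.36 to 0.61 for *Bmp15*, -0.17 to 0.18 for *Oosp1*, -0.11 to 0.40 for *Oosp2* and -0.29 to 0.22 for *Oosp3*. The log2 ratio of *Gdf9* to *Bmp15* ranged from -0.35 to 0.10 in Gdf9-Cre against wt/fl and from -0.11 to 0.34 between the drivers. Groups of 2 libraries left 1 when a library was left out, which was then assumed to vary like the others.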

Other observations

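Among the 12 oocyte markers, others than *Zp3* also passed the test. Of all genes tested, 2.19% were called in wt/fl Spo11-Cre, 1.48% in Gdf9-Cre and 2.27% in Zp3-Cre. The share was 0.891% between the drivers and 0.103% in the interaction. *H1foo*, the oocyte linker histone, fell from 8932 to 9414 CPM in wt/fl to 6682 and 8094 CPM in Gdf9-Cre (log2 fold change -0.39, SE 0.10, edgeR adjusted p = 0.0333) and to 7243 and 7451 CPM in Zp3-Cre (-0.43, SE 0.10, adjusted p = 0.00944). The first call was lost without Gdf9-Cre replicate 1 (adjusted p = 0.478) or any wt/fl library (0.0501 to 0.0753), and the second without Zp3-Cre replicate 1 (0.143). *Zp1*, a zona pellucida gene, fell in Gdf9-Cre (-0.56, SE 0.13, adjusted p = 0.0132) and in wt/fl Spo11-Cre (-0.30, SE 0.09, adjusted p = 0.0466). The former was lost without Gdf9-Cre replicate 2 (0.492) or wt/fl replicate 4 (0.0868), and the latter without any of 6 libraries (0.0758 to 0.338). *Dazl*, which encodes a germ cell RNA-binding protein, was at 1328 and 1375 CPM in Gdf9-Cre and at 878 and 909 CPM in Zp3-Cre (0.63, SE 0.13, adjusted p = 0.00313), and was called with any library left out, but not when only the 4 libraries compared were fitted (0.712).

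*Ooep*, a gene of the subcortical maternal complex, rose in wt/fl Spo11-Cre, at 2836 to 3709 CPM against 2399.7 to 2609 CPM in wt/fl (0.33, SE 0.09, edgeR adjusted p = 0.0292), and had an interaction term of -0.56 (SE 0.13, adjusted p = 0.0485). The first call was lost without any of 4 libraries (0.0577 to 0.169) and the second without any of 11 (0.0538 to 0.178). None of the follicle cell markers tested was called in any of the 7 comparisons, where 0.0223% (fl/del) to 2.27% (Zp3-Cre) of all genes tested were called.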
